A study of Mus musculus with 22 samples.

Results

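A set of 10 genes that mark microglia and macrophages were followed in thymus, cerebrum and cerebellum of Tol and wild-type (WT) mice, as a readout of whether tissue macrophages of mice that carry the Tol transgene differ from those of their littermates. They were Cx3cr1, P2ry12, Tmem119, Aif1, Csf1r, C1qa, C1qb, Trem2, Cd68 and Itgam. They are 10 of the 34584 mouse genes listed in the count tables, were picked by name from knowledge of these cells, and all 10 were found by matching the Ensembl identifiers of the tables to the GRCm38 annotation. Tol mice are heterozygous for a transgene inserted 3′ of Col1a1 and driven by the CAG promoter, which is active in most cell types. It encodes pieces of fluorescent proteins, luciferase and Cre recombinase in shuffled order. WT mice are their littermates, both genotypes are on the C57BL/6 strain, and the study worked with young adult animals. Poly(A) RNA of frozen tissue gave 22 libraries of 14543698 to 34776973 counts, 4 per genotype for thymus and for cerebrum, and for cerebellum 2 from Tol and 4 from WT mice. Which libraries of different organs share a mouse is not given in the sources used here.

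Microglia are the resident macrophages of the brain, and the thymus holds macrophages of its own that clear dying thymocytes. Both depend on signals through the receptor Csf1r and both make the complement protein C1q. In the healthy brain, microglia carry the receptors Cx3cr1 and P2ry12 and the membrane protein Tmem119, which fall in activated microglia, whereas Trem2 signalling, lysosomal Cd68 and the cytoskeletal protein Aif1 (IBA1) are used to follow activation. Itgam (CD11b) is an integrin subunit of microglia, macrophages, neutrophils and natural killer cells. Bulk RNA cannot tell more cells of a type from more RNA per cell.

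The transcription factor PU.1 (Spi1) is required for the macrophage lineage, and its core motif is GAGGAA. The promoters below, from RefSeq on GRCm38.p6, are shown because C1qb, Trem2 and Aif1 are described below for Tol against WT and C1qc is the partner gene of C1qa and C1qb. With all libraries none of these genes was called for Tol against WT in thymus or cerebrum. Each is the 250 bases before the annotated start, 5′ to 3′ on the strand of the gene, with the motif, or its reverse complement TTCCTC, in capitals.
C1qb (chr4:136886201-136886450, minus strand): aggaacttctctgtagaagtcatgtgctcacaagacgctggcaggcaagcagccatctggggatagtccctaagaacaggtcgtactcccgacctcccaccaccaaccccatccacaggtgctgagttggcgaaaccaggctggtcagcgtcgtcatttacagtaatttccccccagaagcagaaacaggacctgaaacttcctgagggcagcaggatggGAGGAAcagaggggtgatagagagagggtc
C1qc (chr4:136892915-136893164, minus strand): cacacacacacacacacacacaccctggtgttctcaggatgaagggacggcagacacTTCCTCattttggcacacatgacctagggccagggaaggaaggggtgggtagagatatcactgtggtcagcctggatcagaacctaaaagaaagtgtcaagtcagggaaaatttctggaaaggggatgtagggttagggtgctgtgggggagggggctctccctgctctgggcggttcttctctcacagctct
Trem2 (chr17:48346151-48346400, plus strand): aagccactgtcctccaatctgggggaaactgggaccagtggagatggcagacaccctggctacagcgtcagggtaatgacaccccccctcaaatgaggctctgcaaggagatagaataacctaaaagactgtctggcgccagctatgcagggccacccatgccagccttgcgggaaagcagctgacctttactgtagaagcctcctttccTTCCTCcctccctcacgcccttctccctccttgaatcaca
Aif1 (chr17:35176053-35176302, minus strand): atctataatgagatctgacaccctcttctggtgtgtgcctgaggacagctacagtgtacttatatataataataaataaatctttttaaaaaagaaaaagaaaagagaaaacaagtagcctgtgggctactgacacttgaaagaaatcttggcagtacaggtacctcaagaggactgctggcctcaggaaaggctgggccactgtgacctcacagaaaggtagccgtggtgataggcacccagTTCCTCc
The promoter table held 7 of the 10 genes, and 5 of these 7 had at least 1 match on either strand (C1qb, Trem2, Aif1, Cd68 and Itgam, but not P2ry12 or Cx3cr1). Of all 27025 genes in the table, 25.9% had a match in the same window. A match is a stretch of letters and was not tested as a binding site.

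The tissue labels were checked first, because these genes differ between tissues. The 8 thymus libraries had Cd8a levels of 1188 to 1445 CPM (a count divided by its TMM-scaled library size and expressed per 10 to the power of 6 counts), and no brain library exceeded 1.36 CPM. Cd4, which T cells and some myeloid cells carry, reached 41.1 CPM in cerebrum WT 3 and 19.1 CPM in cerebrum Tol 4, against at most 2.91 CPM in the other 6 cerebra. The cerebrum libraries had Tbr1, a cortical transcription factor, at 139 to 214 CPM. In the cerebellum the library labelled Tol 2 stood apart. Its level of Pcp2, a Purkinje cell gene, was 10.6 CPM, against 115 CPM in the library labelled WT 2 and 231 to 285 CPM in the other 4. Neurod1, of granule neurons, was at 7.78 CPM in Tol 2, 183 in WT 2 and 357 to 427 in the others. All 5 cerebellar neuron genes examined (Pcp2, Calb1, Cbln1, Neurod1 and Zic1) were lowest in these 2 libraries. Tol 2 did not hold cerebrum genes in their place, with Tbr1 at 1.57 CPM. All 10 microglia and macrophage genes were highest in Tol 2 among the cerebellum libraries, and for 8 of the 10 Tol 2 and WT 2 were the 2 highest. The share of all genes with these orders was not determined. Over all genes, Tol 2 and Tol 1 differed more than any other pair of replicate libraries. What part this tissue content has in the cerebellum results was not tested, and the count and median of the 10 genes for Tol against WT are given with and without both libraries. Transgene levels were 19.8 to 25.4 CPM in Tol thymi, 147 to 174 CPM in Tol cerebra and 140 to 191 CPM in the libraries labelled Tol cerebellum, and no more than 0.120 CPM in any WT library.

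**Figure D1:**
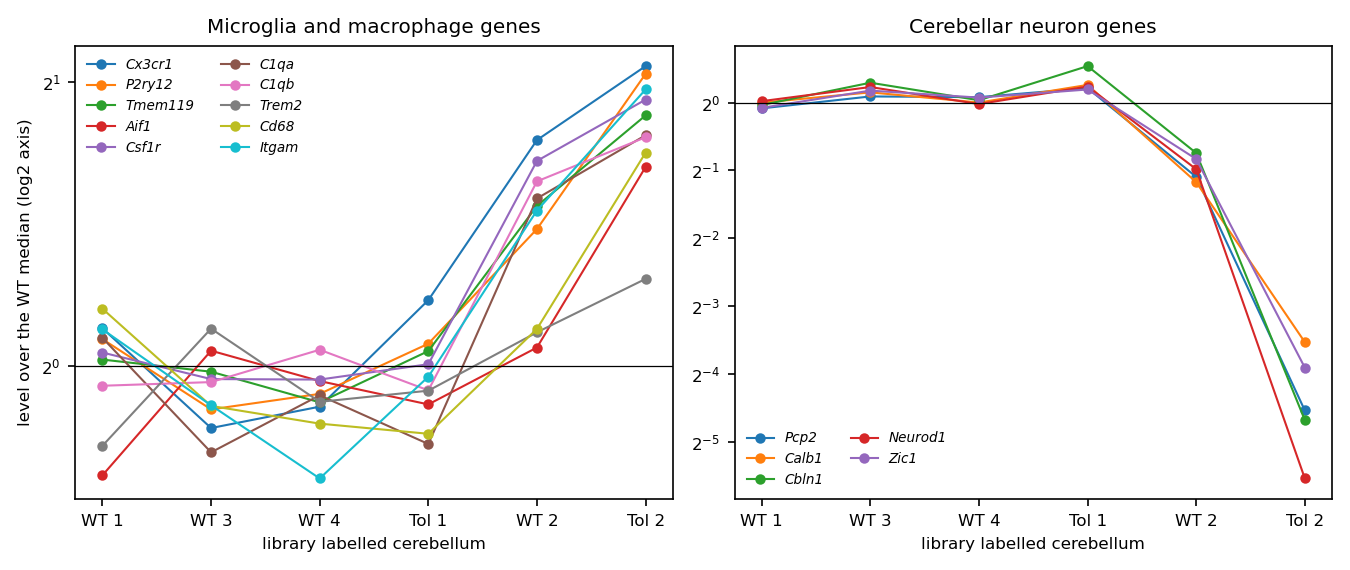
Levels in the 6 libraries labelled cerebellum, each divided by the median of the 4 WT libraries, on log2 axes that differ in range between the panels; points are single libraries and lines join the values of 1 gene. The left panel shows the 10 microglia and macrophage genes, which are highest in Tol 2, and the right panel 5 cerebellar neuron genes, which are lowest in Tol 2 and next lowest in WT 2.

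In WT mice, these genes were present in all 3 organs, in different proportions. The 3 genes most tied to microglia were highest in cerebrum. Cx3cr1, the fractalkine receptor, was at 61.3 ± 9.50 CPM (SD, n = 4) in cerebrum, 17.5 ± 6.16 (SD, n = 4) in cerebellum and 8.35 ± 1.66 (SD, n = 4) in thymus. P2ry12, a receptor for ADP that guides microglial processes, was at 42.8 ± 4.75, 12.5 ± 2.64 and 8.58 ± 0.823 CPM in the same order. Tmem119 was at 20.8 ± 3.15, 5.76 ± 1.35 and 6.69 ± 0.900 CPM, so that cerebellum and thymus overlapped for it. Csf1r was at 108 ± 11.6 CPM in cerebrum, 35.2 ± 10.1 in cerebellum and 49.2 ± 5.32 in thymus. The other receptors had the same order of brain regions: Itgam was at 29.7 ± 3.34 CPM in cerebrum and 10.01 ± 2.87 in cerebellum, and Trem2 at 9.42 ± 1.03 and 4.25 ± 0.578 CPM.

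The C1q genes, Cd68 and Aif1 were highest in thymus. C1qa and C1qb encode chains of C1q, which starts the classical complement cascade and tags material for uptake. C1qa was at 90.8 ± 9.24 CPM (SD, n = 4) in WT thymus, 35.5 ± 2.69 in cerebrum and 15.2 ± 4.27 in cerebellum, and C1qb at 94.4 ± 10.2, 36.5 ± 2.53 and 14.9 ± 3.90 CPM. Cd68, a lysosomal glycoprotein of phagocytes, was at 40.6 ± 4.54 CPM in thymus, 7.66 ± 1.14 in cerebrum and 3.08 ± 0.424 in cerebellum. Aif1 was at 12.3 ± 0.501 CPM in thymus, 3.396 ± 1.01 in cerebrum and 0.993 ± 0.136 in cerebellum, where it rested on 19 to 28 counts per WT library.

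**Figure D2:**
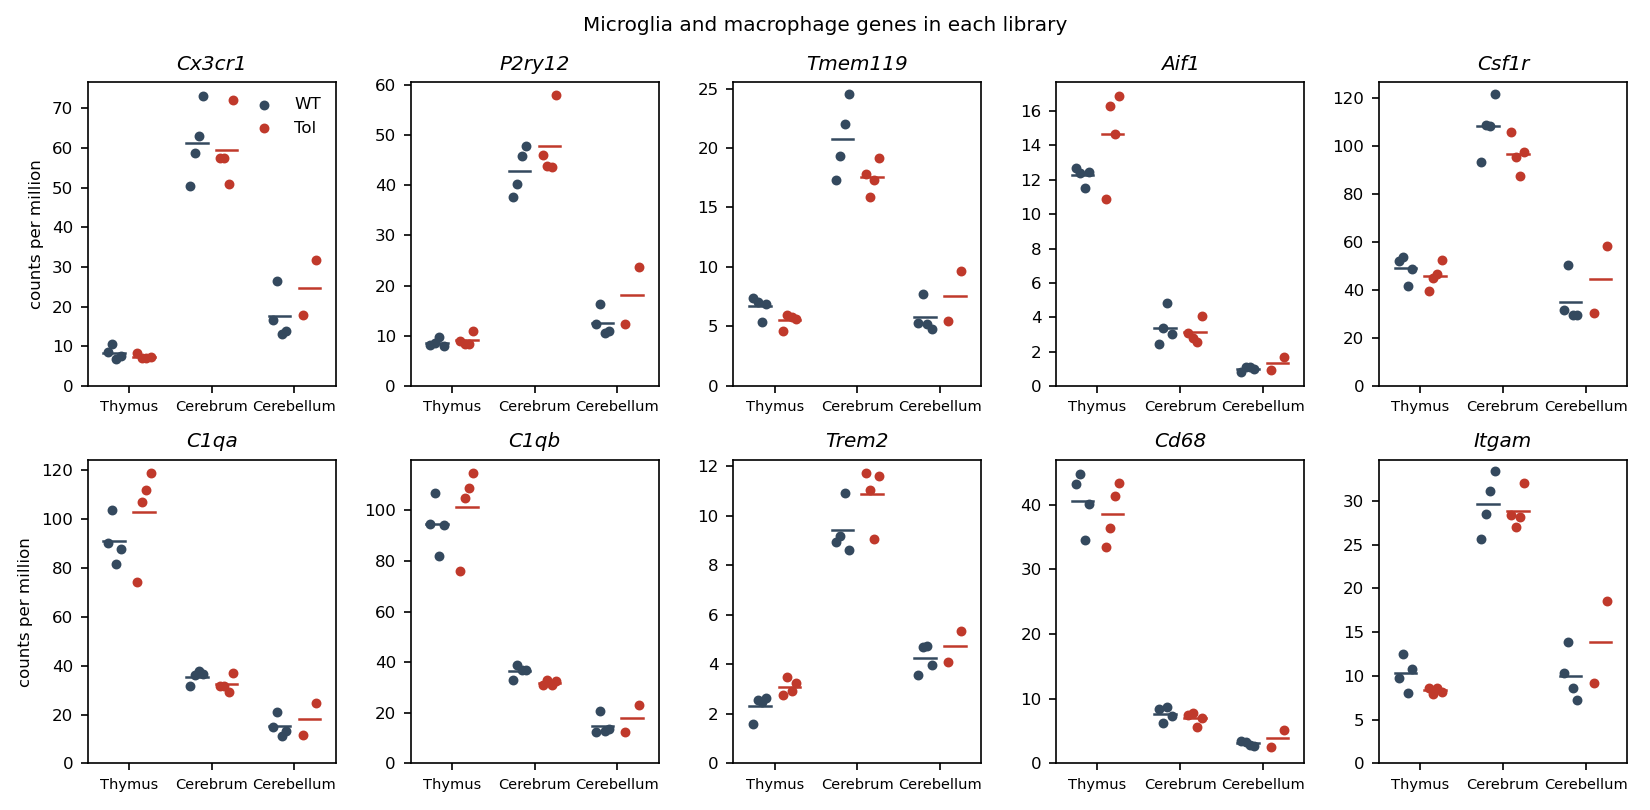
Level of each gene in CPM on a linear axis from 0, in thymus, cerebrum and cerebellum; points are single libraries (4 per group, 2 for Tol cerebellum), horizontal lines are group means, and the genotypes are drawn in 2 colors. Cx3cr1, P2ry12, Tmem119, Csf1r, Trem2 and Itgam are highest in cerebrum, Aif1, C1qa, C1qb and Cd68 in thymus, and the genotypes overlap in most panels.

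Against WT cerebrum, all 10 genes were lower in WT cerebellum (edgeR quasi-likelihood test, Benjamini-Hochberg adjusted p under 0.05 for each). Among all 17413 genes tested, 24.6% were called lower in cerebellum. The fall was between 1.16 on the log2 scale for Trem2 (2.23-fold) and 1.86 for Tmem119 (3.63-fold), with a median of -1.60, against a median of 0.03 over all genes. Cx3cr1 was at 50.4, 58.6, 63.0 and 73.2 CPM in the WT cerebra and at 16.7, 26.4, 13.1 and 13.8 CPM in the WT cerebella, a log2 fold change of -1.82 (SE 0.22, edgeR adjusted p = 2.49e-05). Every WT cerebellum was below every WT cerebrum for Cx3cr1, also WT 2, the highest of the cerebella for this gene. None of the 10 genes overlapped between these groups. The share of all genes without overlap was not determined for this comparison, so this count is not read as particular to the 10 genes. Of the 17413 genes tested, 8892 were called in either direction. Without cerebellum WT 2 and cerebrum WT 3, all 10 were still called lower, with a median log2 fold change of -1.68. In that fit 9047 of the 17649 genes tested were called in either direction. In Tol libraries 9 of the 10 were called lower, and 4302 of the 18377 genes tested were called in either direction. The exception was C1qa, with a log2 fold change of -0.83 (SE 0.28, edgeR adjusted p = 0.0581). That comparison rests on 2 Tol cerebella, including Tol 2.

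Most companion genes of microglia were also lower in WT cerebellum. Of 15 further genes of homeostatic microglia, 13 were called lower in WT cerebellum and 0 higher, with a median log2 fold change of -1.28. Selplg, an adhesion ligand, differed by -1.50 (SE 0.15, edgeR adjusted p = 4.49e-06). Of 9 genes around Trem2 and its adaptor Tyrobp, 6 were called lower and 0 higher. Apoe, a lipid carrier that astrocytes also make, differed by -0.19 (SE 0.10, edgeR adjusted p = 0.144), and Clu by -0.78 (SE 0.12, edgeR adjusted p = 0.000236). Of 10 genes of border and perivascular macrophages, the other macrophages of the brain, 1 was called lower and 0 higher, with a median of 0.17. F13a1 differed by 0.13 (SE 0.32, edgeR adjusted p = 0.765) and Cbr2 by -0.13 (SE 0.27, edgeR adjusted p = 0.710). Neuronal Cx3cl1, the ligand of Cx3cr1, was lower in cerebellum by a log2 fold change of -3.41 (SE 0.27, edgeR adjusted p = 9.40e-07), and was at 853 to 1284 CPM in WT cerebrum. Without cerebellum WT 2 and cerebrum WT 3, Selplg differed by -1.69, Apoe by -0.24, Clu by -0.91, F13a1 by 0.02, Cbr2 by -0.14 and Cx3cl1 by -3.48, and the homeostatic and Trem2 lists had 14 of 15 and 7 of 9 genes called lower.

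Against WT cerebrum, WT thymus had 4 of the genes higher and 6 lower, each with an edgeR adjusted p under 0.05. Among all genes tested, 43.4% were called higher and 40.9% lower in thymus. The genes called higher were Cd68, by 2.43 on the log2 scale (SE 0.13, edgeR adjusted p = 2.07e-09, 5.38-fold), Aif1, by 1.88 (SE 0.19, edgeR adjusted p = 7.28e-07), C1qb, by 1.397 (SE 0.15, edgeR adjusted p = 1.21e-06) and C1qa, by 1.38 (SE 0.16, edgeR adjusted p = 2.71e-06). Cx3cr1 fell by 2.85 on the log2 scale (SE 0.23, edgeR adjusted p = 9.02e-08), or 7.22-fold, followed by P2ry12 at -2.30, Trem2 at -1.99, Tmem119 at -1.61, Itgam at -1.50 and Csf1r at -1.11. The 10 genes had the same signs in Tol libraries, and all 10 were called there too. Of the 18377 genes tested there, 15054 were called in either direction. C1qc, the gene of the remaining chain of C1q, was higher in thymus by 1.49 (SE 0.15, edgeR adjusted p = 1.17e-06), close to the values of C1qa and C1qb.

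**Figure D3:**
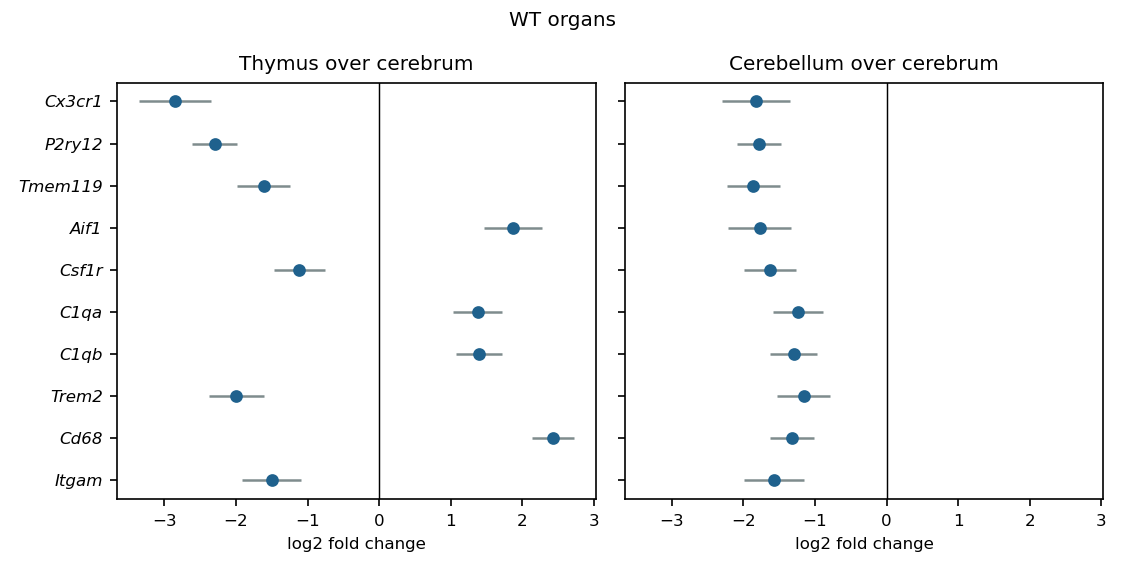
Log2 fold changes of the 10 genes between WT organs, thymus over cerebrum on the left and cerebellum over cerebrum on the right; points are edgeR estimates from 12 WT libraries, bars are 95% intervals and filled points have an adjusted p under 0.05. All 10 genes lie below 0 for cerebellum, whereas Aif1, C1qa, C1qb and Cd68 lie above 0 for thymus.

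Thymus held macrophage genes that the brain had at low levels. Of 10 border and perivascular macrophage genes, 9 were called higher and 1 lower in WT thymus than in WT cerebrum. F13a1, a transglutaminase, was at 108 to 144 CPM over the 8 thymi and at 0.836 to 3.74 CPM over the 8 cerebra. Of 14 tissue macrophage genes, 13 were tested and 11 were called higher. Vcam1, an adhesion molecule of macrophages and stroma, was higher by 2.96 on the log2 scale (SE 0.09, edgeR adjusted p = 7.19e-12), while Maf differed by -0.24 (SE 0.23, edgeR adjusted p = 0.350). Of 18 genes of activated and disease-associated microglia, 13 were called higher and 2 lower. Cathepsin D (Ctsd) was higher by 0.53 (SE 0.11, edgeR adjusted p = 0.000411) and cathepsin B (Ctsb) differed by -0.51 (SE 0.10, edgeR adjusted p = 0.000487). Monocyte, dendritic cell and neutrophil genes were also called higher in thymus, 6 of 6, 7 of 8 and 5 of 6 tested. Some of them mark cells that also carry Itgam, Csf1r or Cx3cr1, and the part of these cells in the thymus levels was not tested.

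Compared per length, as CPM per kilobase of the union of a gene's exons, C1qa and C1qb led in every organ. In WT cerebrum C1qa was at 34.2 ± 2.59 and C1qb at 33.5 ± 2.33 CPM per kilobase (SD, n = 4), a pair that overlapped. Csf1r followed at 18.8 ± 2.01, P2ry12 at 16.8 ± 1.87 and Cx3cr1 at 13.6 ± 2.11, each overlapping with its neighbour. Tmem119 was at 8.98 ± 1.36, Cd68 at 6.10 ± 0.909 and Itgam at 5.90 ± 0.665, and the last 2 overlapped. Aif1 at 2.22 ± 0.659 and Trem2 at 1.91 ± 0.208 came last and overlapped. The place of Trem2 rests on the length used: the union of its exons spans 4946 bases and its longest coding transcript 1088, and with the latter its level in WT cerebrum was 8.66 CPM per kilobase. In WT thymus Cd68 followed C1qa and C1qb at 32.3 ± 3.61, and Cx3cr1, at 1.85 ± 0.368, was above Trem2 alone and overlapped with Itgam. With the longest coding transcript the order of Cx3cr1 and Trem2 in WT thymus was reversed, at 1.86 and 2.13 CPM per kilobase, and they overlapped.

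In Tol against WT thymus, none of the 10 genes passed the threshold (edgeR quasi-likelihood test, 0 of 10 with an adjusted p under 0.05). Among all 16248 genes tested, 0.0985% were called. The fold changes had both signs, 5 positive and 5 negative, between -0.29 and 0.41 on the log2 scale, with a median of 0.01 here and over all genes. An unadjusted p under 0.05 was reached by 2 of the 10, against 24.4% of all genes. Trem2, the lipid-sensing receptor of phagocytes, had levels of 2.76, 3.498, 2.91 and 3.25 CPM in Tol thymi and of 1.60, 2.57, 2.48 and 2.63 CPM in WT thymi. Every Tol thymus was above every WT thymus, which among all genes tested was the case, in either direction, for 11.6%. The log2 fold change was 0.41 (SE 0.18, 95% interval 0.02 to 0.81, unadjusted p = 0.0424, edgeR adjusted p = 0.190), from 34 to 111 counts per library. Itgam had levels of 8.66, 7.96, 8.64 and 8.20 CPM in Tol thymi and of 9.72, 12.5, 8.07 and 10.8 CPM in WT thymi, and the groups overlapped. Its log2 fold change was -0.29 (SE 0.12, 95% interval -0.56 to -0.03, unadjusted p = 0.0309, edgeR adjusted p = 0.165). An annotated gene that shares exons with Itgam on the same strand, Gm49368, had 0 counts in the 4 Tol thymi and 6, 5, 0 and 7 counts in the WT thymi, at most 0.282 CPM. Neutrophil genes, markers of another cell that carries Itgam, had a median log2 fold change of 0.53 over 8 genes, with 0 called.

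For the C1q genes and Aif1, thymus Tol 1 lay apart from the other Tol thymi. Aif1 was at 10.9 CPM in Tol 1 and at 16.3, 14.7 and 16.9 CPM in the other Tol thymi, against 11.5 to 12.7 CPM in WT. C1qa was at 74.2 CPM in Tol 1 and at 107, 112 and 119 CPM in the others, against 81.8 to 104 CPM in WT. For both genes Tol 1 was below all WT thymi and the other 3 Tol thymi were above them. Tol 1 was also the deepest library, with 34776973 counts. Without it, Aif1 differed by 0.39 (SE 0.08, edgeR adjusted p = 0.0114) and C1qa by 0.32 (SE 0.08, edgeR adjusted p = 0.0180), 2 of 10 genes called, against 18.2% of all genes. Trem2 was not called without Tol 1 either (log2 fold change 0.48, SE 0.20, edgeR adjusted p = 0.113). Tol 1 was set apart on these same values, so the fit without it is no separate test of Aif1 and C1qa. With any other single thymus library left out, 0 of the 10 genes were called.

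**Figure D4:**
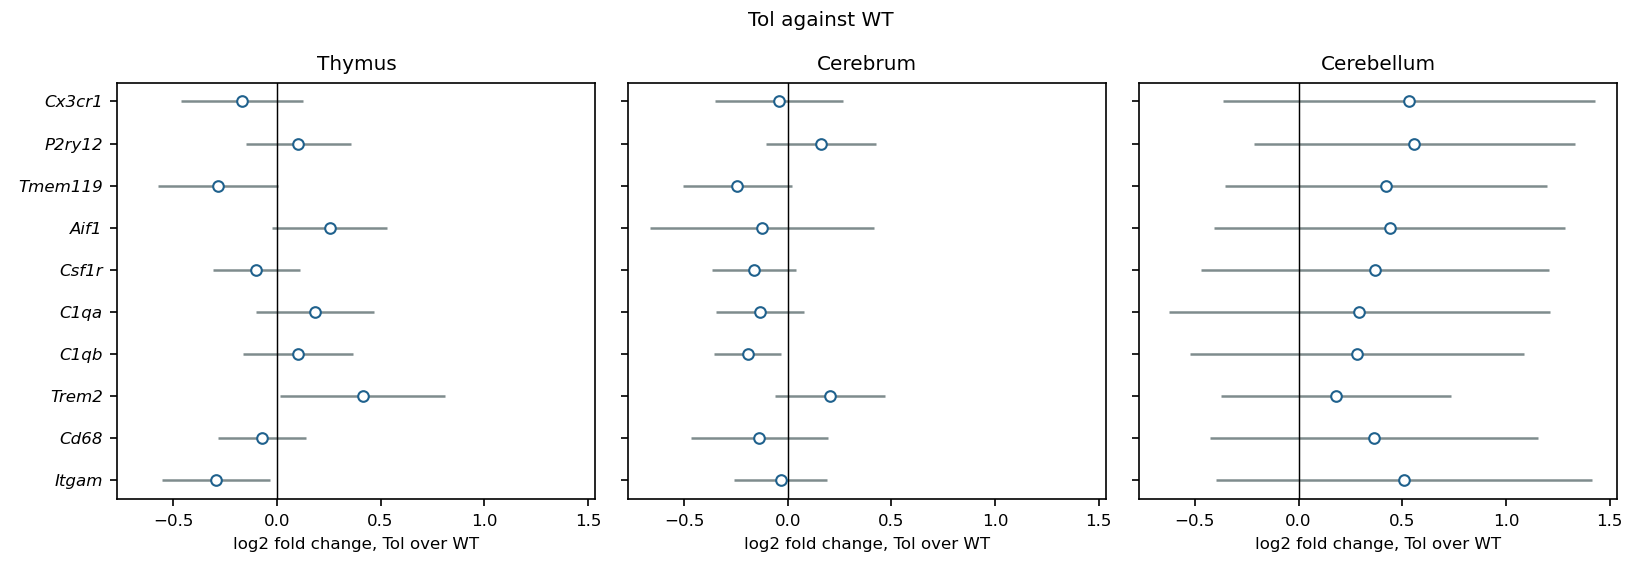
Log2 fold change of each gene in Tol over WT tissue; points are edgeR estimates and bars 95% intervals, on one axis for the 3 organs, and open points have an adjusted p of at least 0.05. No gene is called in any organ, the thymus and cerebrum values lie between -0.29 and 0.41, and the intervals of the cerebellum, with 2 Tol libraries, are the widest.

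In Tol against WT cerebrum, 0 of the 10 genes had an adjusted p under 0.05, and 0.0% of the 15596 genes tested did (edgeR quasi-likelihood test; DESeq2 called 177 genes, 0 of them among the 10). Of the 10 genes, 8 had a negative and 2 a positive fold change, with a median of -0.13, against 0.00 over all genes. Blood genes were on the same side, with 5 of 5 negative, a median of -0.36 and Hba-a1 at -0.44 (SE 0.20, edgeR adjusted p = 0.532). Of 6 reactive astrocyte genes tested 4 were negative, also with a median of -0.36. In both lists 0 genes were called, and their part in the values of the 10 genes was not tested. An unadjusted p under 0.05 was reached by 1 of the 10, against 9.66% of all genes. This was C1qb, at 31.1, 32.8, 30.8 and 32.6 CPM in Tol and at 32.8, 38.8, 37.1 and 37.1 CPM in WT cerebra. All Tol values were below all WT values, by a narrow margin at the nearest pair. Such a separation, in either direction, was found in 6.46% of all genes. The log2 fold change was -0.19 (SE 0.07, 95% interval -0.36 to -0.03, unadjusted p = 0.0251, edgeR adjusted p = 0.434). C1qa, in the same protein, differed by -0.13 (SE 0.09, edgeR adjusted p = 0.697) and C1qc by -0.29 (SE 0.09, edgeR adjusted p = 0.366).

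For Cx3cr1, P2ry12 and Tmem119, the homeostatic genes among the 10, the intervals of the fold change in cerebrum included 0. Cx3cr1 had levels of 57.5, 57.4, 50.9 and 72.2 CPM in Tol cerebra and of 50.4, 58.6, 63.0 and 73.2 CPM in WT cerebra, a log2 fold change of -0.04 (95% interval -0.35 to 0.27). For P2ry12 it was 0.16 (95% interval -0.11 to 0.43) and for Tmem119 -0.24 (95% interval -0.51 to 0.02). Among genes that follow activation, Trem2 differed by 0.21 (95% interval -0.06 to 0.47), Cd68 by -0.14 (95% interval -0.47 to 0.19) and Aif1 by -0.12 (95% interval -0.66 to 0.42). Over the 10 genes the intervals lay between -0.66 and 0.47, the widest being that of Aif1, which rested on 45 to 80 counts per library.

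In the cerebellum, all 10 genes had a positive fold change in Tol, between 0.18 (Trem2) and 0.56 (P2ry12) on the log2 scale, with a median of 0.40 against 0.01 over all genes. Border and perivascular macrophage genes lay on the same side, with 9 of 10 positive, a median of 0.67, 2 at an unadjusted p under 0.05, 3 without overlap and 0 called. Their summed level was 28.2 and 42.1 CPM in the Tol libraries and 19.5 to 27.4 CPM in the WT libraries, and their part in the values of the 10 genes was not tested. The threshold was passed by 0 of the 10 genes, and by 0.0% of the 16662 genes tested (edgeR quasi-likelihood test; DESeq2 called 8 genes, 0 of them among the 10). An unadjusted p under 0.05 was reached by 0 of the 10, against 3.16% of all genes, and the genotypes overlapped for all 10, while 10.5% of all genes did not overlap. Csf1r had a level of 30.6 CPM in Tol 1, 58.5 CPM in Tol 2 and 31.5, 50.3, 29.5 and 29.5 CPM in WT libraries 1 to 4. Tol 1 was within the WT range and Tol 2 above it. P2ry12 had 12.3 CPM in Tol 1, 23.7 CPM in Tol 2 and 12.4, 16.3, 10.5 and 10.9 CPM in WT, with the same pattern. Without Tol 2 and WT 2, the 2 libraries with the fewest cerebellar transcripts, 5 of the 10 fold changes were positive and 5 negative, with a median of 0.01, from 1 Tol library against 3 WT libraries. Csf1r then differed by 0.02 (SE 0.11) and P2ry12 by 0.12 (SE 0.17). The border macrophage genes then had 6 of 10 positive, with a median of 0.18.

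Whether the effect of Tol differed between organs was tested directly. Between cerebrum and thymus, 0 of the 10 genes had an adjusted p under 0.05, against 0.107% of the 17774 genes tested, and 0 had an unadjusted p under 0.05, against 16.5% (edgeR quasi-likelihood test of the interaction; DESeq2 called 0 of the 10). The differences, cerebrum minus thymus, ranged from -0.39 for Aif1 (SE 0.27) to 0.26 for Itgam (SE 0.16). C1qb had the lowest p, with a difference of -0.30 (SE 0.15, edgeR adjusted p = 0.344). Without thymus Tol 1, C1qa and C1qb were called, at -0.45 (edgeR adjusted p = 0.0492) and -0.41 (edgeR adjusted p = 0.0416), 2 of 10 genes against 6.22% of all genes in that fit. Tol 1 lay apart for the C1q genes, so this fit is no separate test of them. Between cerebellum and cerebrum, 0 of the 10 genes were called, against 0.0% of the 17130 genes tested, and 1 had an unadjusted p under 0.05, against 6.08%. This was Tmem119, with a difference of 0.68 (SE 0.30, unadjusted p = 0.0432, edgeR adjusted p = 0.812). Without the cerebellum libraries Tol 2 and WT 2 it was 0.36 (SE 0.22).

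Of 14 inflammatory mediators, 7 were under 1 CPM in each of the 8 cerebra and 5 were at 1 CPM or more in each. In the 6 cerebella these numbers were 8 and 3. The genes under 1 CPM in both regions were Il1a, Il1b, Il6, Tnf, Ccl2, Ccl5 and Cxcl10. In cerebrum 8 of the 14 were tested in Tol against WT and 0 were called, with a median log2 fold change of -0.11. Nfkbia, an inhibitor of NF-kB and one of its target genes, had the lowest p of the list, at 13.8 ± 0.491 CPM in Tol and 18.2 ± 2.84 CPM in WT cerebra (SD, n = 4 each), a log2 fold change of -0.40 (SE 0.11, edgeR adjusted p = 0.281). Of the 18 genes of activated and disease-associated microglia, 12 were tested in cerebrum and 0 were called, with a median of -0.10, and 10 of the 18 were at 1 CPM or more in every cerebrum. For Gpnmb, a glycoprotein of lipid-laden phagocytes with the smallest p of the list, it was -0.57 (SE 0.20, edgeR adjusted p = 0.409). In 15 homeostatic genes 0 were called, and Selplg had the lowest p, with -0.29 (SE 0.08, edgeR adjusted p = 0.278). Tyrobp, the adaptor of Trem2, differed by -0.27 (SE 0.11, edgeR adjusted p = 0.466), while Trem2 itself had a positive value. In cerebellum 9 mediators were tested and 0 called, with 6 positive and a median of 0.34. Il1a had the lowest p, with 0.97 (SE 0.38, unadjusted p = 0.0414, edgeR adjusted p = 0.957), at 0.524 and 0.536 CPM in the Tol libraries and 0.232 to 0.349 CPM in the WT libraries. Without Tol 2 and WT 2, 8 of the 9 were positive, with a median of 0.19 and 0 called.

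Macrophages and blood cells other than microglia could add to these values in the brain. Of the border and perivascular macrophage genes, 7 of 10 were tested in cerebrum and 0 called, with a median log2 fold change of 0.08. Mrc1, their mannose receptor, was at 2.44 to 7.23 CPM over the cerebra and differed by 0.57 in Tol (SE 0.25, edgeR adjusted p = 0.513). Slc40a1, an iron exporter of macrophages and other cells, had the lowest p of the tissue macrophage list, with 0.45 (SE 0.16, edgeR adjusted p = 0.396). Ly6g, a neutrophil marker, was at 0 counts in all 8 cerebra. S100a8, abundant in neutrophils, was at 1.98 CPM in cerebrum WT 3 and at 0.0493 to 0.243 CPM in the other 7 cerebra. Ccr2, of monocytes, was at 0.129 to 0.825 CPM over the cerebra.

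In thymus the lists around the 10 genes also had 0 genes called. Of 11 further complement genes, 10 had a negative fold change in Tol and 10 an unadjusted p under 0.05, with a median log2 fold change of -0.50, against 24.4% of all genes at that p. C1ra, a protease of the C1 complex, differed by -0.50 (SE 0.11, edgeR adjusted p = 0.0710) and C3, the central component, by -0.38 (SE 0.11, edgeR adjusted p = 0.0885). The positive value was that of C1qc, 0.08 (SE 0.13, edgeR adjusted p = 0.752), the gene of the remaining chain of C1q. Without thymus Tol 1, 5 of the 11 were called lower (among them C1ra, C1s1, C3 and Serping1) and 0 higher. In that fit 18.2% of all genes were called, in either direction. Many of these genes are made by stroma rather than macrophages, and their cell of origin was not tested.

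Other lists in thymus had values on both sides. Of 9 genes of Trem2 and Tyrobp signalling, 5 had an unadjusted p under 0.05. Inpp5d, a lipid phosphatase also of T cells, differed by -0.31 (SE 0.07, edgeR adjusted p = 0.0748), and Tyrobp by 0.07 (SE 0.12, edgeR adjusted p = 0.743). Lyve1, a receptor of lymphatic vessels and border macrophages, ranged from 0.298 to 1.395 CPM in Tol thymi and from 1.34 to 3.34 CPM in WT thymi, a log2 fold change of -1.70 (SE 0.40, edgeR adjusted p = 0.0830). The groups overlapped and the level was low. Maf had the lowest p of the tissue macrophage genes, with -0.33 (SE 0.10, edgeR adjusted p = 0.102), Tnfaip3 of the inflammatory mediators, with -0.24 (SE 0.07, edgeR adjusted p = 0.0958), and Spp1 of the genes of activated microglia, with 0.44 (SE 0.15, edgeR adjusted p = 0.123). In the cerebellum Serping1, an inhibitor of the C1 complex, had the lowest p of the complement list, with 0.57 (SE 0.13, edgeR adjusted p = 0.957), and Mrc1 that of the border macrophage list, with 0.89 (SE 0.24, edgeR adjusted p = 0.957). Without Tol 2 and WT 2 these were 0.63 (SE 0.17) and 0.70 (SE 0.31).

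**Figure D5:**
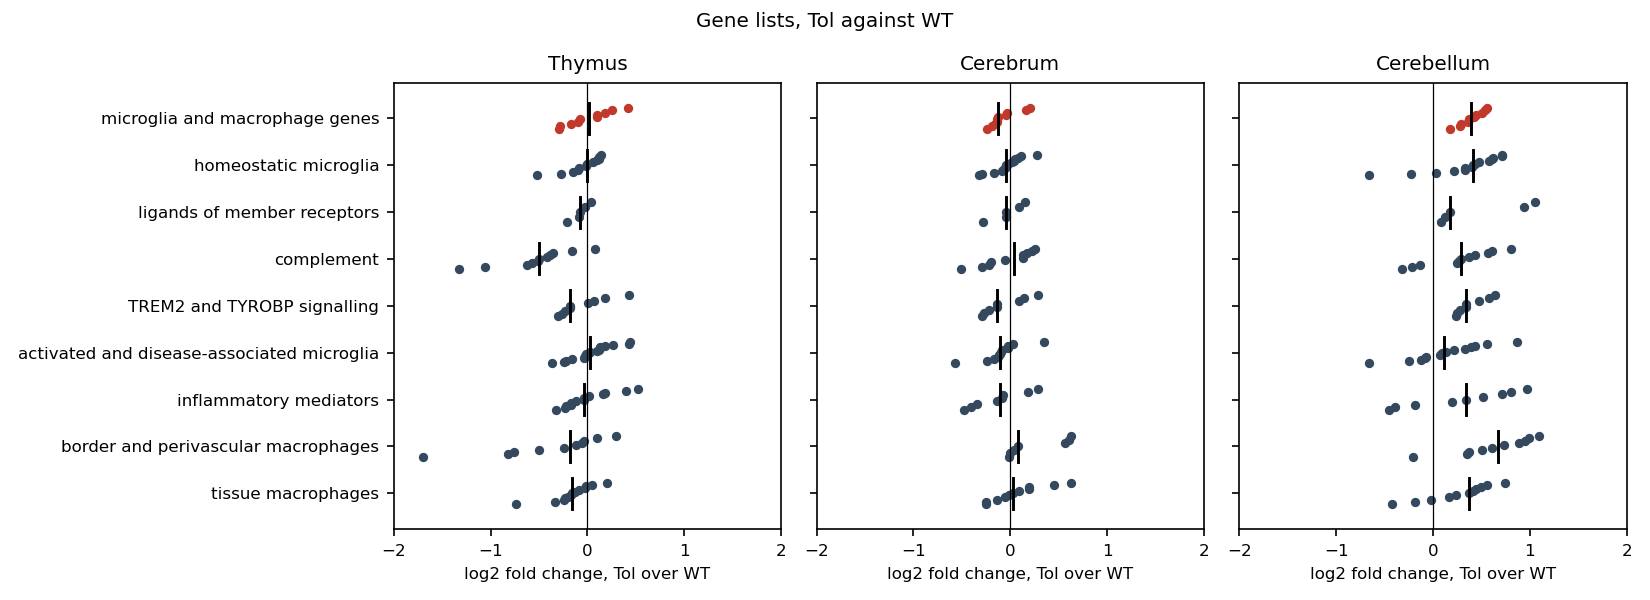
Log2 fold changes in Tol over WT of the 10 microglia and macrophage genes (top row, in color) and of the genes tested in 8 related lists, for thymus, cerebrum and cerebellum; points are single genes and vertical bars list medians. Complement genes in thymus lie mostly below 0, with a median of -0.50, and the cerebellum medians lie above 0 with all libraries; without Tol 2 and WT 2 they are -0.05 for homeostatic, -0.14 for ligand, -0.19 for complement, -0.08 for activated and -0.12 for tissue macrophage genes, and stay above 0 for the others.

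Within groups, the 10 genes rose and fell together in the brain and less so in thymus, as a description. Each gene's log2(CPM + 1) was taken relative to the mean of its organ and genotype group. Over the 14 brain libraries all 45 pairs of genes had a positive Pearson correlation, with a median of 0.69, and over the 8 cerebrum libraries 42 of 45, with a median of 0.59. Over the 8 thymi 35 of 45 were positive, with a median of 0.29. In thymus C1qb, Csf1r, C1qa and Cd68 followed the other genes with correlations of 0.94, 0.93, 0.90 and 0.88, whereas P2ry12 did so with -0.06 and Trem2 with 0.13. The points share library preparation and depth, and the brain value rests in part on cerebellum Tol 2 and WT 2, which differ from their groups in tissue content.

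Among the 8 further genes whose deviations in the brain were most like the mean of the 10 were Ctss (r = 0.97), Epb41l2 (r = 0.97), C1qc (r = 0.96), Rpsa (r = 0.96), Nxpe4 (r = 0.96), Olfml3 (r = 0.96) and Mpeg1 (r = 0.96), over 14 libraries. Ctss, a lysosomal protease, and Mpeg1, a pore-forming protein of phagocytes, are known microglial genes, and Olfml3 is in the list of homeostatic microglia above. In thymus the 8 included Tmem25, Lgmn, F11r, Dse, Aaed1, Ccr3 and Spryd7, with r between 0.97 and 0.98 over 8 libraries. Lgmn is a lysosomal protease of phagocytes. Both lists were picked as the highest of 17131 genes in the brain and 16249 in thymus. Correlations of this size over few libraries can come from that choice alone, and no test was made. With rank correlation 5 of the 8 brain genes stayed among the first 8, and 1 of the 8 thymus genes.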

How the data were processed

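The authors prepared stranded poly(A) libraries, sequenced single-end reads of 65 bases and quantified them against GRCm38 transcripts with the Tol sequence added. The deposited values are estimated counts per gene, whole numbers without normalization, made with Salmon 0.14.1 per the labels. Whether strand was used is not given in the sources used here, so P2ry12, Csf1r and Cx3cr1, whose exons overlap a gene of the other strand, could share reads with it, as could Itgam with Gm49368 on its own strand.

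Counts were tested in edgeR 4.0.16 (R 4.3.3) with TMM factors, filterByExpr and quasi-likelihood tests, by organ for genotype, over WT libraries for organs, and with an interaction term between organs. Benjamini-Hochberg adjustment covered all genes tested and, where it passed the filter, the transgene. The transgene was left out of the counts of genes tested and called. SE is the absolute log2 fold change divided by the root of F. CPM use TMM factors over 22 libraries. DESeq2 1.42.0, other filters, a joint fit, blocking and left-out libraries were alternatives, and tests were checked on simulated data. Genes and lists were chosen with earlier results of these data known. The 10 genes, and from each list the gene of lowest p and genes of highest level, were to be named, and others were chosen after their values were seen. Replicate libraries differed beyond counting noise. A count of 0 allows up to 3 counts, which covers counting error only. Some genes that this rule names are not reported here.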

Additional observations from a re-analysis of the deposited data

Results flagged for a closer look

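Dixon's criterion for a single library apart from its group was applied to 50 groups of 4 libraries, of which chance flags about 2.5, and 4 were flagged. P2ry12 in cerebrum Tol 4 was at 57.9 CPM, with the nearest Tol cerebrum at 45.9 CPM. Tol 4 was the shallowest library, with 14543698 counts, had Cd4 at 19.1 CPM and was the highest Tol cerebrum for 6 of the 10 genes, and the part of these in the value was not tested. Csf1r in cerebellum WT 2 was at 50.3 CPM, with the nearest WT cerebellum at 31.5 CPM, and C1qb in the same library was at 20.7 CPM, against 13.7 CPM. This library had the fewest cerebellar neuron transcripts of the WT cerebella, and the part of that in both values was not tested. Trem2 in thymus WT 1 was at 1.60 CPM, with the nearest WT thymus at 2.48 CPM.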

How the results depend on the processing

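In edgeR's test, Tol against WT gave 16 called thymus genes, 0 for cerebrum and 0 for cerebellum, while DESeq2 gave 1112, 177 and 8. In thymus the count was 130 without a filter on low counts, 85 with at least 10 counts in every library, 29 in a fit of all 22 libraries and 5 with a replicate block, and in cerebrum 25 in the fit of all libraries. Leaving out 1 library gave 0 to 2978 genes for thymus (highest without Tol 1), 0 to 7 for cerebrum and 0 to 2 for cerebellum. For WT cerebellum against cerebrum, Tol libraries gave 4302 called genes in place of 8892. For the effect of Tol in cerebrum minus thymus, 19 genes were called, 385 with DESeq2, 48 with at least 10 counts, 0 in the fit of all libraries, 0 with the replicate block and 2 to 1116 with 1 library left out. For cerebellum minus cerebrum, 0 were called, 7 with DESeq2 and 0 to 1499 with 1 library left out. Of the 10 genes, leaving out 1 library called 0 to 2 in thymus and 0 to 2 in cerebrum minus thymus. The cause of these changes in the counts was not tested. In cerebellum minus cerebrum, Tmem119 differed by 1.04 without cerebellum Tol 1. That value rests on Tol 2 as the only Tol cerebellum, the library with the fewest cerebellar transcripts.

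Directions changed as follows. Without both cerebellum libraries of few cerebellar transcripts, the log2 fold change in cerebellum was -0.0219 for Aif1, -0.183 for C1qa, -0.0660 for C1qb, -0.00790 for Trem2 and -0.204 for Cd68, and cerebellum minus cerebrum was -0.00453 for P2ry12, -0.0175 for C1qa and -0.0376 for Cd68. Same-numbered Tol and WT libraries did not deviate together throughout (correlations of -0.160 to 0.0688 in thymus, -0.382 to 0.439 in cerebrum, -0.201 and 0.670 in cerebellum, the last for Tol 2 and WT 2, both low in cerebellar transcripts), so the numbers were not taken to pair them. With the replicate block, C1qa in cerebellum was -0.0478 and Trem2 in cerebellum minus cerebrum 0.0238.

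With 1 library left out, the values ranged from -0.13 to 0.00432 for Cd68 in thymus, and in cerebrum from -0.151 to 0.0577 for Cx3cr1, -0.269 to 0.0879 for Aif1 and -0.0962 to 0.0293 for Itgam. In cerebellum, where without either Tol library the lone one is assumed to vary like the others, they ranged from -0.0251 to 0.968 for P2ry12, -0.0831 to 0.79 for Tmem119, -0.0669 to 0.81 for Aif1, -0.20 to 0.77 for Csf1r, -0.38 to 0.75 for C1qa, -0.26 to 0.67 for C1qb, -0.0585 to 0.38 for Trem2, -0.25 to 0.79 for Cd68 and -0.12 to 0.94 for Itgam, each lowest without Tol 2. For cerebrum minus thymus the ranges were -0.0109 to 0.22 for Cx3cr1, -0.0398 to 0.14 for P2ry12, -0.0428 to 0.12 for Tmem119, -0.13 to 0.00196 for Csf1r and -0.15 to 0.0297 for Cd68. For cerebellum minus cerebrum they were -0.15 to 0.82 for P2ry12, -0.00713 to 0.94 for Csf1r, -0.22 to 0.89 for C1qa, -0.0369 to 0.87 for C1qb, -0.23 to 0.18 for Trem2, -0.0785 to 0.93 for Cd68 and -0.0498 to 0.98 for Itgam.

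On simulated data with 200 changed genes, genes changed 2-fold were recovered at 77.5% (thymus), 74.5% (cerebrum) and 0% (cerebellum), and genes changed 4-fold at 94.5%, 92.5% and 60%. Unchanged genes that were called numbered 16, 8 and 2 in the 2-fold runs, and 9, 4 and 13 in the 4-fold runs. Each gene was drawn independently, so libraries that stand apart over many genes were not simulated. The biological coefficient of variation in the fits of the deposited counts was 11.2%, 16.6% and 33.2%, and the parts of library number and of the libraries that stand apart were not separated.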
